A study of Mus musculus with 15 samples.

Results

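Nuclear genes for oxidative phosphorylation, the final stage of respiration in mitochondria, were followed across 3 populations of CD34+ cells sorted from a mouse melanoma. Of 92 gene symbols that named a subunit or assembly factor of the respiratory chain or of ATP synthase, 86 reached a mean normalized count of 50 or more across 15 libraries and are described here, out of 53465 genes in the table. They comprised 7 core subunits, 29 accessory subunits and 8 assembly factors of complex I, the 4 subunits of complex II, 8 subunits of complex III, 14 of complex IV, 5 of the catalytic F1 part of ATP synthase, 10 of its peripheral stalk and membrane part, and Atp5s, which is related to ATP synthase but is not a core subunit. The rule used only symbols and the mean over all libraries, which leaves differences between populations open to test. It was chosen with earlier results of these data known.

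The cells came from B16-F0 melanomas taken 15 days after inoculation from CAG-GFP mice of both sexes aged 8 to 14 weeks, in which a ubiquitous promoter drives GFP, so that host cells are green and tumor cells are not. All 3 populations were GFP+, lineage negative and CD34+, and they differed in the gate on CD31 and VEGFR2. Endovascular progenitors (EVP) were CD31 low and VEGFR2 low, transit amplifying cells (TA) were CD31 intermediate and VEGFR2 low, and definitive differentiated cells (D) were CD31 high and VEGFR2 high. Each population had 5 libraries. Neither pooling of animals nor a shared animal behind a replicate number was stated, so p-values measure the spread between libraries.

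Complexes I and II pass electrons from NADH and succinate to ubiquinone, complex III passes them to cytochrome c, and complex IV passes them to oxygen. Complexes I, III and IV pump protons, and ATP synthase uses the return of these protons to make ATP. Complexes I, III, IV and ATP synthase combine subunits encoded in the nucleus with subunits encoded in mitochondrial DNA, so their assembly depends on both genomes, whereas the subunits of complex II are all nuclear. A few nuclear subunits exist as alternative isoforms. Cox4i2 replaces Cox4i1 in subunit 4 of complex IV in some tissues and at low oxygen, and Ndufa4l2 is the hypoxia-inducible paralog of Ndufa4, a protein first assigned to complex I and later to complex IV.

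The libraries held between 5394356 and 26513073 reads on genes, with a median of 19049194, and EVP replicate 1 was the shallowest. Replicate 1 of EVP, TA and D stood apart in that 1 gene, Gm10800, took 10.6%, 8.69% and 8.50% of their counts. In all 3 populations the pan-endothelial marker list (10 genes, including Pecam1, the gene of CD31, and Kdr, the gene of VEGFR2) was detected, but its summed normalized count was 2399 to 4490 in EVP, 6105 to 78701 in TA and 109874 to 174081 in D, and 9 of the 10 were called lower in EVP than in D. Pecam1 and Kdr defined the gates. The 8 fibroblast markers summed to between 840558 and 1494780 in EVP, 190986 and 606223 in TA and 979 and 4065 in D, and all 8 were called higher in EVP than in D and in TA than in D. In EVP, therefore, endothelial markers were low beside those of fibroblasts. In sorted bulk RNA, a smaller share of a cell type and less RNA per cell cannot be told apart.

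The most abundant of these transcripts per kb of exon was Cox4i1, the common subunit 4 of complex IV, with a mean of 9920 normalized counts per kb, followed by Atp5b, the catalytic beta subunit of F1, with 8229. On the same scale the highest gene was Uqcr10 (5368) in complex III, Atp5o (5014) in the peripheral stalk, Sdhb (4665) in complex II, and Ndufa2 (4508) among accessory subunits of complex I. Assembly factors, which build complex I but are not part of it, reached at most 683 per kb (Ndufaf2). Just above the minimum mean of 50 stood Atp5l, with a mean of 116 normalized counts, and Atp5g2 with 161. Just below it stood Cox7a1 (32.4) and Cox6b2 (27.3), and the other 4 excluded genes were Cox6a2 (4.65), Cox8c (2.60), Cox7b2 (2.06) and Cox8b (0.294), which include the muscle forms of complex IV subunits. The low count of Atp5l is uncertain, because 75.7% of its 76-base stretches, the length of the reads, also occurred in other genes.

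Transcripts of most of these genes were lowest in EVP, and by small amounts. The mean log2 level was lowest in EVP for 68 of the 86 genes (79.1%) and highest in TA for 57 (66.3%), where 32.2% of the 13122 tested genes with a mean of at least 50 were lowest in EVP and 23.3% were highest in TA. Summed over the 86 genes, their share of all normalized counts was 0.747%, 1.07%, 1.08%, 0.895% and 1.21% in EVP replicates 1 to 5, 1.20%, 1.52%, 1.72%, 1.25% and 1.37% in TA, and 1.21%, 1.35%, 1.23%, 1.17% and 1.23% in D. EVP and TA met at their edges and D lay inside the range of both together, so the populations were not separated by this total.

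**Figure D1:**
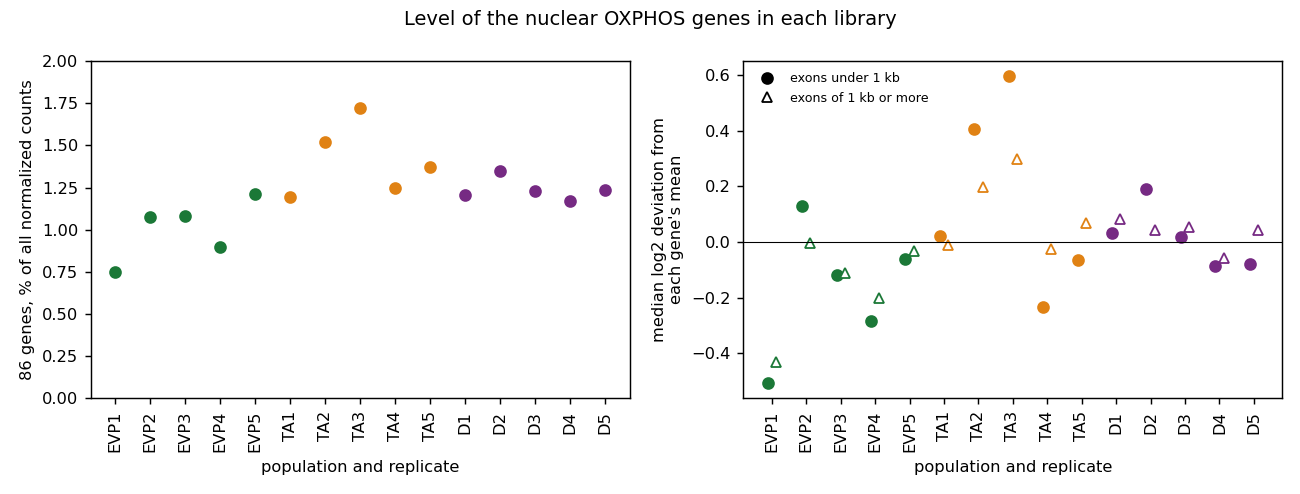
Left, the share of all normalized counts (percent, from 0) taken by the 86 genes in each of the 15 libraries. Right, the median log2 deviation of the genes from their own mean over the 15 libraries, for 41 genes with under 1 kb of exon (circles) and 45 longer genes (triangles). EVP replicate 1 is the lowest library in both panels and TA replicates 2 and 3 are the highest.

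A few libraries stood apart in this shift. The median log2 deviation of the 86 genes from their own means was -0.48 in EVP replicate 1, +0.35 in TA replicate 2 and +0.48 in TA replicate 3, and it ranged from -0.26 to +0.11 elsewhere. In TA replicates 2 and 3 the short transcripts were further up than the long ones, by 0.21 and 0.30 on the log2 scale. In TA replicate 4 the short ones were further down, by 0.21, so transcript length moved with the level in these TA libraries. In EVP replicate 1, the lowest library, short minus long was only -0.07, and in the remaining libraries it ranged from -0.13 to 0.15. Markers of other cells moved with the population too. The 6 melanoma markers summed to 69248 to 175671 normalized counts in TA against 29702 to 67272 in EVP and 18157 to 47767 in D, with TA replicate 3 the highest library, and the 6 leukocyte markers summed to 2827 to 19875 in TA, 912 to 6848 in EVP and 1075 to 2186 in D. The parts of length and of these cells in the shift of the 86 genes were not tested.

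Of the 3 pairs of populations, which share libraries, EVP against D had the most genes called by limma after adjustment. In EVP against D, 8 of the 86 genes (9.3%) passed an adjusted p of 0.05 by limma, fitted over all 25549 genes with a mean of at least 5, against 19.0% of all tested genes and 30.2% of those with a mean of at least 50. Ndufa4l2 was higher in EVP, where 11.6% of all tested genes were called in that direction, and 7 genes were higher in D, where 7.46% were. They included Ndufa8, Ndufs8, Ndufa12, Ndufc2, Ndufb7 and Cox5a. In TA against D, 3 genes (3.49%) passed, against 12.5% of all tested genes and 21.3% of those with a mean of at least 50. Ndufa4l2 and Cox4i2 were higher in TA (8.21% of all tested genes) and Ndufa8 was higher in D (4.31%). In EVP against TA none passed with limma, against 3.50% of all tested genes and 6.49% of those with a mean of at least 50. An unadjusted limma p under 0.05 was found for 22 genes in this pair, 20 in EVP against D and 7 in TA against D. On the recovered reads, edgeR and DESeq2 called 1 and 12 in EVP against TA, among 663 and 1900 calls over all genes. All 12 of the DESeq2 calls were lower in EVP.

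**Figure D2:**
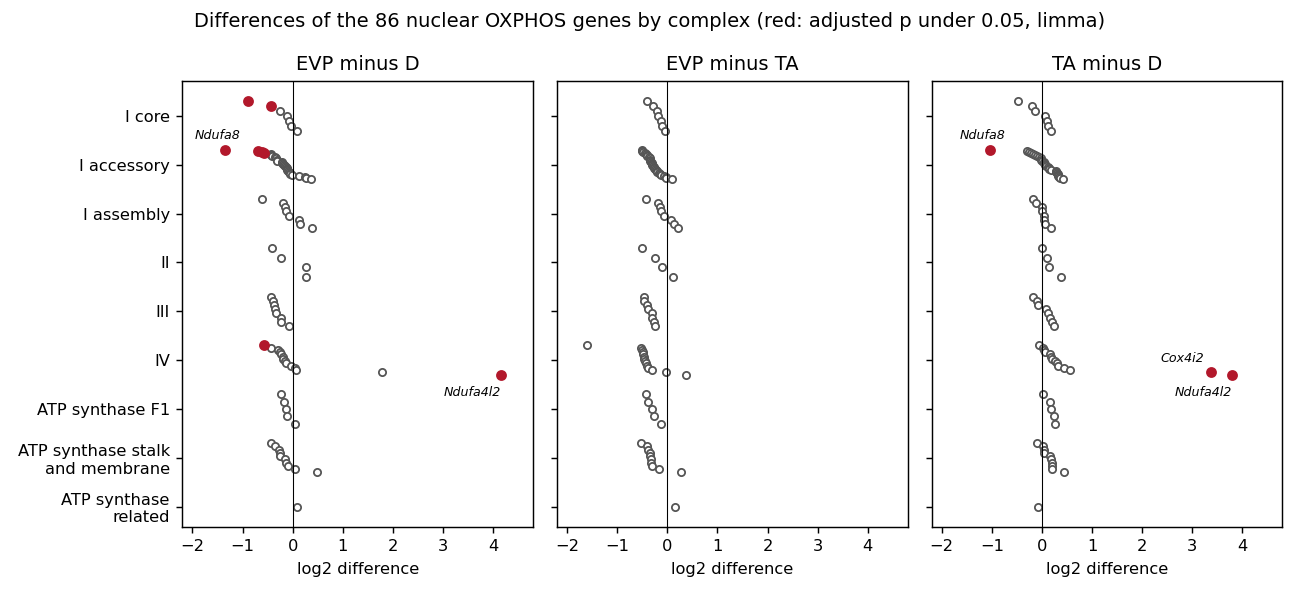
Log2 differences of the 86 genes between populations (horizontal axis), one point per gene, in rows by complex. Red points passed an adjusted p of 0.05 by limma, 8 in EVP minus D, 0 in EVP minus TA and 3 in TA minus D. Most open points lie left of 0 in EVP minus TA.

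The direction of the many small differences was the same in most complexes. In EVP against TA the log2 difference was below 0 for 78 of 86 genes, with a median of -0.31, and the medians were -0.46 for complex IV, -0.35 for complex III, -0.33 for the stalk and membrane part of ATP synthase, -0.31 for F1, -0.30 for accessory and -0.18 for core subunits of complex I, -0.18 for complex II and -0.09 for the assembly factors. In EVP against D the difference was below 0 for 68 genes, with a median of -0.16. In TA against D it was above 0 for 63 genes, with a median of +0.10. Over all tested genes the median difference was +0.46 in EVP against D, +0.09 in EVP against TA and +0.24 in TA against D, and quantile normalization moved these to -0.05, +0.01 and -0.10. Relative to the median of tested genes with a mean of at least 50, the 86 genes stood at -0.22, -0.35 and +0.13 in the 3 pairs, and at -0.04, -0.34 and +0.32 after quantile normalization. Without EVP replicate 1 the first 2 of these were -0.14 and -0.27, and without TA replicate 3 the last was +0.04.

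Ndufa4l2 showed the largest difference of the 86 genes in both comparisons with D (GRCm38 chr10:127514967-127517154, plus strand, whole gene, as for the other locations). Its normalized count was 1225, 1933, 1939.7, 834 and 2460.2 in EVP replicates 1 to 5 and 541, 1843, 1138, 791 and 2971 in TA. In D it was 133, 66.9, 64.9, 81.9 and 106. All 10 EVP and TA libraries lay above all 5 D libraries, and EVP and TA overlapped. The mean was 1679 ± 645 (SD, n = 5) in EVP and 1457 ± 978 in TA against 90.5 ± 28.9 in D, a ratio of 18.5 and 16.1. The log2 difference was 4.15 ± 0.41 (SE) for EVP against D (limma, adjusted p = 7.7e-07) and 3.79 ± 0.41 for TA against D (adjusted p = 6.0e-06). For EVP against TA it was 0.36 (limma, adjusted p = 0.816), with no call.

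Its paralog Ndufa4 was not called in any pair. The normalized count of Ndufa4 was 2559.6, 3568, 2417, 2641 and 3001 in EVP, 3976, 5005, 4949, 3316 and 2763 in TA and 3049, 3008, 2895, 2433 and 2946 in D. EVP and D overlapped, with a log2 difference of -0.02 (limma, adjusted p = 0.945). Expressed as a share of the pair per kb of exon, which does not depend on how libraries are scaled, Ndufa4l2 made up 24.2%, 26.6%, 34.9%, 17.4% and 35.4% in EVP and 8.34%, 19.7%, 13.3%, 13.7% and 41.8% in TA. In D it made up 2.84%, 1.46%, 1.48%, 2.20% and 2.34%. Every EVP and TA library lay above every D library, in which nearly all of the pair was Ndufa4. The difference in mean share was 25.6 points for EVP against D and 17.3 points for TA against D (exact permutation test, two-sided, n = 5 and 5, p = 0.00794 each, the smallest possible, adjusted p = 0.0476 over 12 share comparisons). Leaving out any 1 of the 5 D libraries left 25.5 to 25.8 points for EVP against D and 17.2 to 17.5 points for TA against D. The adjusted p was then 0.0635 to 0.0952 in the exact permutation test for both. The unadjusted exact permutation p was 0.00794 for EVP against D, still the smallest possible, and 0.0159 for TA against D in each case.

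**Figure D3:**
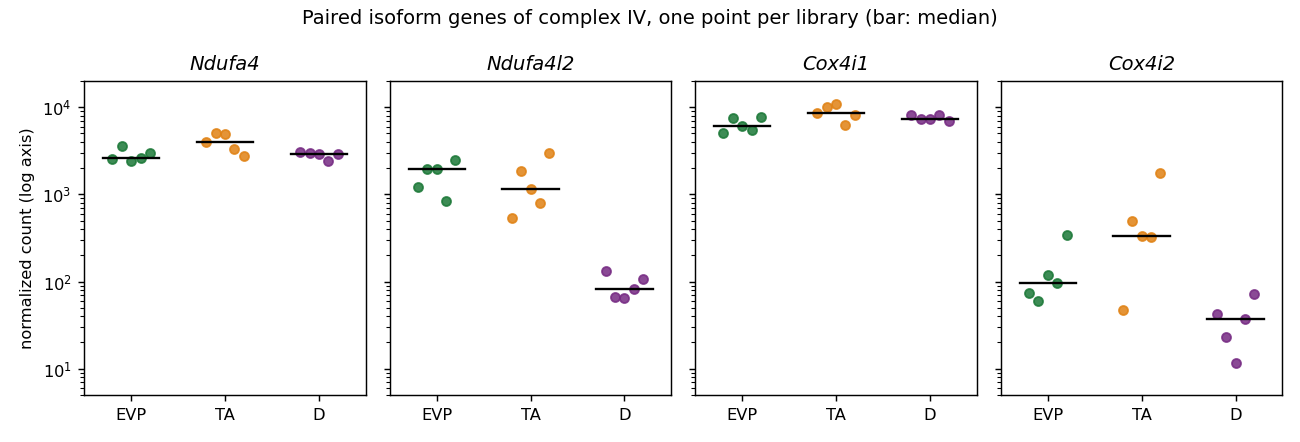
Normalized counts (log axis) of Ndufa4 and its paralog Ndufa4l2 and of the subunit 4 genes Cox4i1 and Cox4i2, one point per library, with bars at the median of 5 libraries. For Ndufa4l2 the 5 D libraries (64.9 to 133) lie below every EVP and TA library, while Ndufa4 and Cox4i1 overlap between populations.

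Cox4i2, the alternative subunit 4, was higher in TA than in D and varied most in TA (chr2:152754173-152765037, plus strand). Its normalized count was 73.7, 60.1, 118, 96.7 and 341 in EVP, 46.5, 499, 329, 327 and 1774 in TA and 42.6, 22.9, 11.7, 37.6 and 71.9 in D. TA replicate 1 lay inside the range of D, and the other 4 TA libraries lay above all D libraries. The log2 difference of TA against D was 3.38 ± 0.75 (limma, adjusted p = 0.00534), and it was 2.79 without TA replicate 5 and 4.09 without TA replicate 1. After quantile normalization it was 2.55 (limma, adjusted p = 0.136) and was not called. EVP against D gave 1.79 ± 0.75 (limma, adjusted p = 0.12), which ranged from 0.62 to 2.08 over 28 alternatives and was called in 5 of them. EVP against TA gave -1.60 ± 0.75 (limma, adjusted p = 0.316), with TA replicate 1 below every EVP library, and was not called with or without TA replicate 5. The common subunit Cox4i1, at 5017 to 7789 in EVP, 6328 to 10796 in TA and 6945 to 8231 in D, was called in no pair.

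As a share of subunit 4 per kb, Cox4i2 was under 5% in 14 of the 15 libraries. It was 1.95% ± 1.26 (SD, n = 5) in EVP, 6.05% ± 6.65 in TA and 0.480% ± 0.318 in D, with the highest TA library, replicate 5, at 17.5%. EVP and TA differed by -4.10 points (exact permutation p = 0.143, two-sided, n = 5 and 5, adjusted p = 0.245). The differences of 1.47 points for EVP against D and 5.57 points for TA against D had an exact permutation p of 0.0159 each (two-sided, n = 5 and 5, adjusted p = 0.0476). Without TA replicate 5 the TA against D difference was 2.70 points (adjusted exact permutation p = 0.0476). Without EVP replicate 5 the EVP against D difference was 0.941 points (adjusted exact permutation p = 0.0571). The TA against D comparison, which holds no EVP library, stayed at 5.57 points with an unadjusted exact permutation p of 0.0159. Its adjusted p was then also 0.0571, because the adjustment covers all share comparisons. Leaving out any 1 of the D libraries gave an adjusted exact permutation p of 0.0635 to 0.127 for EVP against D and 0.167 to 0.190 for TA against D.

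Within EVP and within TA, markers of mural cells, which surround vessels and are not endothelial, were highest in the library with the most Cox4i2 and Ndufa4l2. The summed normalized count of 10 mural markers was 7437 to 13122 in EVP replicates 1 to 4 and 34577 in EVP replicate 5. It was 6212 in TA replicate 1, 18416 to 40505 in TA replicates 2 to 4 and 158014 in TA replicate 5, and 5232 to 10934 in D. EVP replicate 5 and TA replicate 5, the libraries with the most mural signal in their populations, were also those with the most Ndufa4l2 and Cox4i2, and TA replicate 1 had the least of all 3 among TA libraries, with the mural marker Higd1b at 0. Other libraries went the other way for Ndufa4l2. EVP replicate 4, at 13122, came next in mural signal in EVP and had the least Ndufa4l2 there. TA replicate 4, at 40505, had more mural signal than TA replicates 2 and 3 and less Ndufa4l2 than both. In EVP replicates 1 to 3 the mural sum lay inside the range of D, while Ndufa4l2 was above every D library. Of the 10 markers, 6 were called higher in TA than in D and none lower, and 4 were called higher and 2 lower in EVP than in D. Kcnj8 and Abcc9, 2 subunits of a potassium channel of pericytes, were among the markers present in D, with means of 2845 and 2216 normalized counts, and these were the markers called lower in EVP. The markers called higher in EVP were Pdgfrb, Cspg4, Acta2 and Notch3, and the median log2 difference of the 10 was +1.09 in EVP against D. The part of mural cells in the levels of Ndufa4l2 and Cox4i2 was not tested.

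The other marker lists moved as well. All 6 melanoma markers were called higher in TA than in D, while the gate kept GFP+ cells only. In EVP against D 1 melanoma marker, Mitf, was called higher in EVP. Leukocyte markers were called higher in TA than in D for 4 of 6 genes, and striated muscle markers for 1 of 7 tested. Fibroblast markers were high in EVP and TA and low in D, as Ndufa4l2 was. None of the 6 leukocyte markers and 2 of the 7 muscle markers were called higher in EVP than in D. The part of these cells in the levels of Ndufa4l2 and Cox4i2 was not tested.

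**Figure D4:**
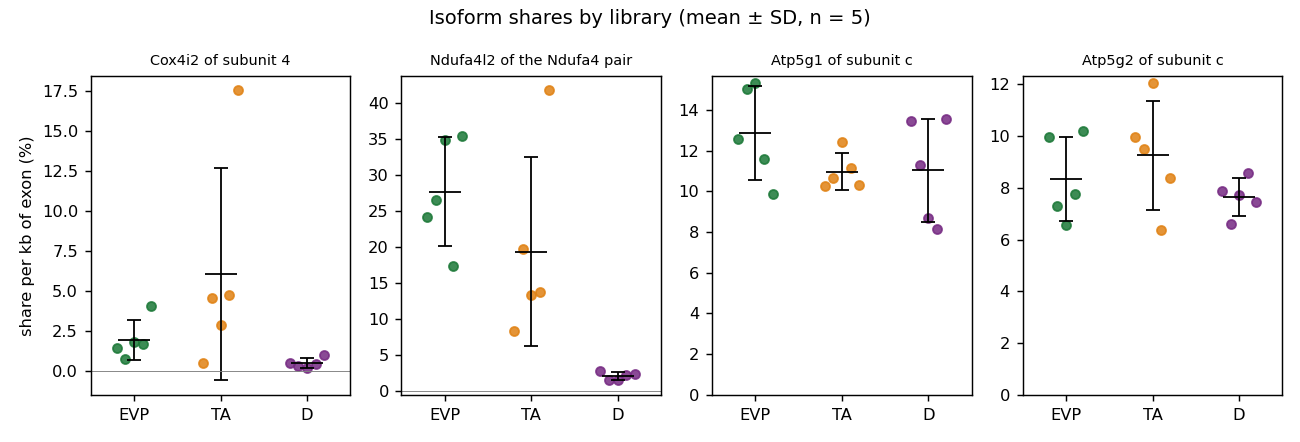
Isoform shares per kb of exon (percent) in each library, with the mean and SD of 5 libraries per population (vertical axes differ). Ndufa4l2 took 17.4% to 35.4% of the Ndufa4 pair in EVP and 1.46% to 2.84% in D, and the 2 subunit c shares overlap between populations.

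Subunit c of ATP synthase, the ring that turns as protons pass, is encoded by 3 genes that yield the same mature protein, and their balance was not called different between populations. Per kb, Atp5g1 supplied 12.9% ± 2.31 (SD, n = 5) in EVP, 11.0% ± 0.897 in TA and 11.0% ± 2.55 in D. Atp5g2 supplied 8.35% ± 1.63, 9.25% ± 2.09 and 7.64% ± 0.721, and Atp5g3 supplied the rest. The size of these shares depends on annotated exon length, 4912 bases for Atp5g1 against 724 for Atp5g3. Before division by length, the mean normalized count over all libraries was 1454 for Atp5g1 and 1501 for Atp5g3. The exact permutation p of the 6 comparisons lay between 0.143 and 0.968 (n = 5 and 5). The value of Atp5g2 is uncertain, because 35.7% of the 76-base stretches of its transcripts, the length of the reads, also occurred in another gene.

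Complex I held 6 of the 7 genes that were called higher in D than in EVP. They were 4 of its 29 accessory subunits, 2 of its 7 core subunits and 0 of its 8 assembly factors. Of all tested genes, 7.46% were called higher in D. Of those with a mean of at least 50, 30.2% were called in either direction. Whether complex I held more calls than its size would give was not tested. The largest difference among the 7 genes was that of Ndufa8 (chr2:36036326-36049406, minus strand). Ndufa8 is an accessory subunit of complex I with paired cysteines, imported into the intermembrane space. Its normalized count was 1615, 2466, 2344, 2051 and 2009 in EVP, 3058, 1884, 3405, 2448 and 2384 in TA and 5449, 6051, 4893, 4507 and 5914 in D. Every D library exceeded every EVP and TA library. The mean in D was 2.56 times that in EVP and 2.03 times that in TA, with log2 differences of -1.36 ± 0.17 for EVP against D (limma, adjusted p = 1.2e-05) and -1.05 ± 0.17 for TA against D (adjusted p = 0.000472). Ndufa8 shared no 76-base stretch with another gene.

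Ndufs8, a core subunit that carries iron-sulfur clusters on the path of electrons to ubiquinone, came next (chr19:3908870-3912717, minus strand). It had 1022, 1542, 1599, 1261 and 1744 normalized counts in EVP, 1577, 1505, 2381, 1921 and 2040 in TA and 2711, 2845, 2514, 2315 and 2651 in D. EVP and D did not overlap, and TA lay between them and overlapped EVP and, through replicate 3, D. The log2 difference was -0.88 ± 0.17 for EVP against D (limma, adjusted p = 0.00098) and -0.48 for TA against D (adjusted p = 0.0782), which was not called.

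**Figure D5:**
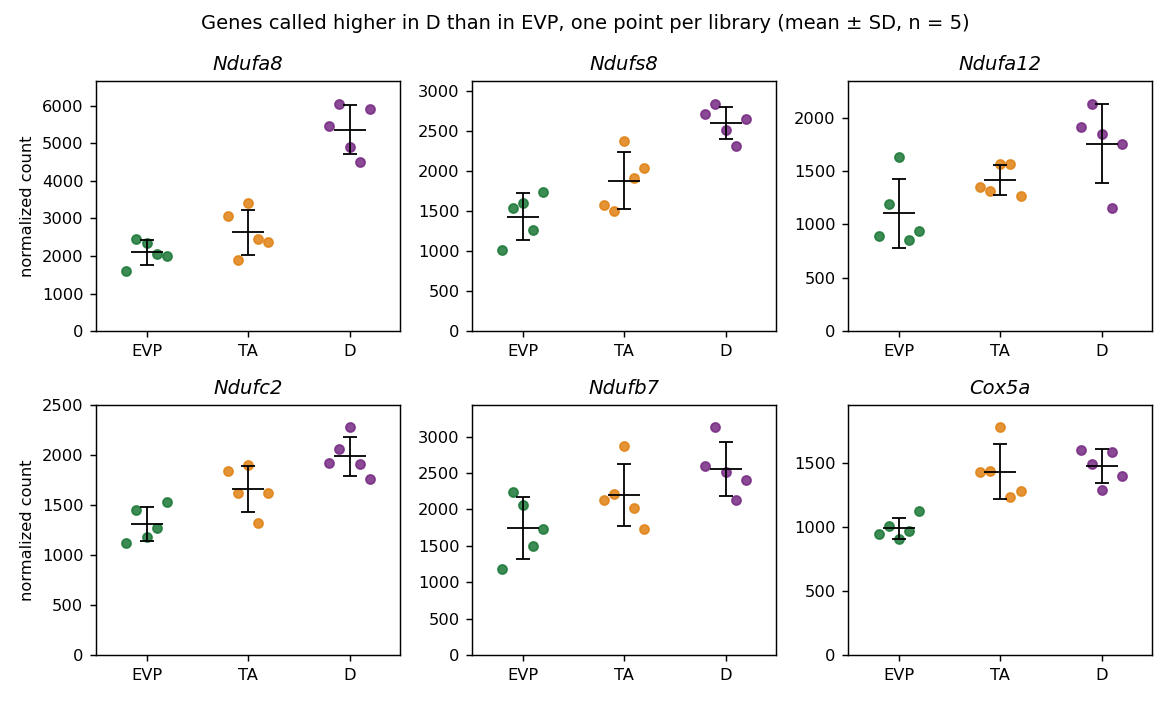
Normalized counts (linear axes from 0) of 6 genes called higher in D than in EVP, one point per library, with the mean and SD of 5 libraries. EVP and D do not overlap for Ndufa8, Ndufs8, Ndufc2 and Cox5a, and they overlap for Ndufa12 and Ndufb7.

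Of the other genes higher in D, 2 were also free of overlap between EVP and D. Ndufc2, an accessory subunit of the membrane arm of complex I at chr7:97400003-97407802, plus strand, had 1124, 1447, 1182, 1274 and 1527 normalized counts in EVP, 1316 to 1901 in TA and 1919, 2061, 2275, 1912 and 1759 in D (log2 difference -0.60 ± 0.15, limma, adjusted p = 0.00694). Cox5a, a subunit of complex IV on its matrix side (chr9:57521274-57532426, plus strand), had 944, 1005, 906, 969 and 1120.2 in EVP and 1601, 1492, 1289.7, 1584 and 1397 in D (-0.57 ± 0.15, limma, adjusted p = 0.00831). In TA, Cox5a was at 1425, 1436, 1774, 1229 and 1278, also above all EVP libraries, with a log2 difference of -0.52 for EVP against TA (limma, adjusted p = 0.0576). For Cox5a, 21.4% of its 76-base stretches also occurred in another gene, led by Gm26631 on the opposite strand, and reads were not stranded, so its count is uncertain.

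Ndufa12 and Ndufb7 were also called higher in D, and their populations overlapped. Ndufa12, an accessory subunit near the core (chr10:94198955-94221443, plus strand), had 857 to 1635 normalized counts in EVP, 1269 to 1568 in TA and 1149 to 2129.9 in D (log2 difference -0.69 ± 0.20 for EVP against D, limma, adjusted p = 0.0227). Ndufb7, at the intermembrane face of the membrane arm (chr8:83566671-83571626, plus strand), had 1179.7 to 2238 normalized counts in EVP, 1728 to 2875 in TA and 2125 to 3126 in D (log2 difference -0.58 ± 0.19 for EVP against D, limma, adjusted p = 0.0389). Both lost their call without EVP replicate 1, EVP replicate 4, D replicate 1 or D replicate 3, and 5 genes then passed in place of 8. Ndufa12 shared 21.8% of its 76-base stretches with another gene. In all, EVP and D libraries were fully separated for 2 of the 86 genes with more in EVP and 10 with more in D. Of all tested genes, 10.2% and 7.52% were separated in these directions. Those shares cover genes with a mean of at least 5, and were not taken for genes with a mean of at least 50.

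Promoters of 70 of the 86 genes were matched by symbol in RefSeq (GRCm38.p6), each covering 250 bases before and 50 after the start. The 250 bases upstream are shown for Ndufa8, Ndufs8 and Ndufb7, the genes higher in D whose window held a core of NRF1, GABPA or YY1, the motifs first searched for. Capitals mark the NRF1 core in Ndufa8, where GCATGCG matched on both strands at 1 palindromic site, and the GABPA core CCGGAAG in Ndufb7. The GABPA match of Ndufs8 lay after the start and is not shown.
Ndufa8, chr2:36049339-36049588, minus strand: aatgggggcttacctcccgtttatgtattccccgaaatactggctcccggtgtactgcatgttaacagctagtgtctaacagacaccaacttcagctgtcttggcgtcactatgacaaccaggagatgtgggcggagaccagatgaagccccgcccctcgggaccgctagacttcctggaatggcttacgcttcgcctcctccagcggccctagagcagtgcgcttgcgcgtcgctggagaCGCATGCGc
Ndufs8, chr19:3912775-3913024, minus strand: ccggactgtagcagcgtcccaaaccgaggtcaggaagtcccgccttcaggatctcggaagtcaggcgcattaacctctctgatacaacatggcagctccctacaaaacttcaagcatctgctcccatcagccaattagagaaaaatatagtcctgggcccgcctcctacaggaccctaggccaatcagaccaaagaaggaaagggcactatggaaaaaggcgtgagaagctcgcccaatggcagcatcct
Ndufb7, chr8:83566508-83566757, plus strand: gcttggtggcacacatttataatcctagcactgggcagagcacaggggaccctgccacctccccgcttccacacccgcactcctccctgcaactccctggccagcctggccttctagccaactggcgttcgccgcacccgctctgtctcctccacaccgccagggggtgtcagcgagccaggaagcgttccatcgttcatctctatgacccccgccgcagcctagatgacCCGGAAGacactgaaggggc

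NRF1, GABPA and YY1 are transcription factors known for driving respiratory chain genes, and their cores were searched on both strands of the 300-base windows. GCATGCG occurred in 17.1% of the 70 promoters and in 3.58% of all 32851 promoters, CCGGAAG in 24.3% and 8.86%, and GATGGCG, the YY1 core, in 14.3% and 3.49%. At least 1 of the 3 occurred in 32 of the 70 promoters (45.7%) and in 14.5% of all. Median GC content was 58.5% and 52.7%. The core of the hypoxia response element, ACGTG, was added later and occurred in 21.4% and 19.6%. Of the genes higher in D, Ndufa12, Ndufc2 and Cox5a held none of the first 3 cores in their windows.

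Genes of complexes II and III and of ATP synthase were not called in any pair. In complex II, Sdhb, the iron-sulfur subunit, came closest, with 3181 to 4879 normalized counts in EVP, 5368 to 6854 in TA and 4602 to 6479.9 in D. EVP and TA did not overlap, and the log2 difference was -0.51 for EVP against TA (limma, adjusted p = 0.057) and -0.41 for EVP against D (adjusted p = 0.0552). In complex III all 8 genes had a lower mean in EVP than in TA and in D, with Uqcr10 at 1355 to 2847 in EVP, 1958 to 4459 in TA and 1562 to 2961 in D. In ATP synthase, Atp5b was at 10859 to 19513 in EVP, 14502 to 22956 in TA and 11698 to 19733 in D, and Atp5o, a stalk subunit of which 36.9% of the 76-base stretches also occurred in another gene, was at 2923 to 5075, 3628 to 6325 and 3095 to 4819. All of these ranges overlapped except that of Sdhb between EVP and TA.

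The accessory subunit Ndufa2 (1734 to 3420.1 in EVP, 1937 to 3635 in TA and 2335 to 3434 in D), the assembly factor Ndufaf2 (357 to 609, 317 to 800.2 and 385 to 501) and Atp5s (262 to 412, 154 to 609 and 213 to 393) overlapped between all populations and were called in no pair. None of the 8 complex I assembly factors was called in any pair. The spread between libraries of 1 population was smaller for these genes than for others, with a median SD on the log2 scale of 0.28 (EVP), 0.31 (TA) and 0.18 (D), against 0.40, 0.58 and 0.37 for tested genes with a mean of at least 50.

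Subunits encoded in mitochondrial DNA, the partners of these proteins, were called in no pair. Of 13 such genes 7 could be tested, among them mt-Co1, the catalytic subunit of complex IV, whose mean normalized count was 48568 in EVP, 72925 in TA and 52329 in D. The median log2 difference of the 7 was +0.08 in EVP against D, -0.46 in EVP against TA and +0.58 in TA against D. The other 6 (mt-Co2, mt-Co3, mt-Atp6, mt-Atp8, mt-Nd3 and mt-Nd4l) were listed at or near 0 in all libraries and give no value here. The share of counts on the mitochondrial chromosome was 1.34% to 1.94% in EVP, 1.19% to 4.26% in TA and 1.33% to 3.60% in D.

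Other nuclear genes of the same machinery were mostly not called. Cytochrome c (Cycs), which carries electrons from complex III to IV, was called lower in EVP than in TA (log2 difference -0.63, limma, adjusted p = 0.04), the only call among 5 nuclear subunits with other names. Of 39 tested assembly factors of all complexes 1 was called in 1 pair, Coa5, higher in TA than in D. Of 18 enzymes of pyruvate oxidation and the citric acid cycle, Pdha1 was higher in EVP than in D, Idh3a lower in EVP than in TA and Idh2 higher in TA than in D. Of 18 import genes, Timm17a and Tomm20 were lower in EVP than in D, and Tomm20 also in EVP than in TA. The longest list was the mitochondrial ribosome, which makes the subunits encoded in mitochondrial DNA. In it, 11 of 77 tested genes were lower in EVP than in D and none higher, led by Mrpl17 (-1.55, limma). Of all tested genes, 7.46% were called in that direction. Of those with a mean of at least 50, 30.2% were called in either direction. For all of these lists, the share of all tested genes called in either direction was 19.0% in EVP against D, 3.50% in EVP against TA and 12.5% in TA against D.

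Of 17 regulators of mitochondrial gene expression, 1 was called higher and 1 lower in EVP than in D. In TA against D 2 were called higher and 2 lower, and in EVP against TA none was called. Of all tested genes, 19.0% were called in EVP against D, 12.5% in TA against D and 3.50% in EVP against TA. Gabpb1, the partner subunit of GABPA, was lower in EVP than in D (-1.18) and in TA than in D (-0.67). Ppargc1b, a coactivator of respiratory genes, was higher in EVP (+2.35) and in TA (+2.74) than in D, and Ppargc1a was higher in TA than in D (+1.91, limma, adjusted p = 0.03). Polrmt, the mitochondrial RNA polymerase, was lower in TA than in D (-1.03). Nrf1, Gabpa, Yy1 and Tfam were called in no pair. Of 8 genes by which mitochondria respond to low oxygen, only Bnip3, a mitophagy receptor, was called, higher in EVP than in D (+1.53, limma, adjusted p = 0.013), while Pdk1, a kinase that blocks pyruvate dehydrogenase, had a log2 difference of -0.40 (adjusted p = 0.35).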

How the data were processed

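CD34+ cells of 3 populations sorted from B16-F0 melanomas were profiled by a modified Smart-Seq2 RNA-seq protocol, unstranded, with paired reads of 76 bases, in 5 libraries each. Per the study's methods, the authors mapped reads with STAR 2.5.3a to GRCm38 with Ensembl annotation, counted them per gene with HTSeq-count and divided them by DESeq2 1.10.1 size factors. The deposited signal values are these normalized counts, and every value was a whole multiple of what 1 read is worth in its library (100% within 0.001), so whole reads were recovered. Other deposited tables hold the authors' own comparisons and were not used.

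The genes and lists were chosen with earlier results of these data known. Named with values were genes called in any pair, genes of the isoform shares and the highest gene per kb in each complex group. log2(normalized count + 1) was fitted for 25549 genes (mean normalized count 5 or more) over all 15 libraries with limma 3.58.1 (R 4.3.3), with Benjamini-Hochberg adjustment over all of them, a call being an adjusted p under 0.05. Differences are on this log2 scale, which understates changes of low genes. Isoform shares were divided by exon length and compared by exact permutation tests. Alternatives included edgeR 4.0.16 and DESeq2 1.42.0 on recovered reads, other scalings, minimum means and pseudocounts, array weights, a replicate block and libraries left out. The limma script was tested on simulated data. Values of some genes are not reported here.

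Exon lengths came from GRCm38 annotation and were found for all 86 genes, and 31 of these share exons with another gene. Depth was 5394356 to 26513073 reads on genes per library. The strand setting of the counting is not given in the sources used here.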

Additional observations from a re-analysis of the deposited data

Results flagged for a closer look

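In 7 of the 78 groups of 5 libraries examined, 1 library stood apart from the other 4 by Dixon's criterion, where chance gives about 1 in 20. The highest library was flagged for Cox4i2 in EVP (341 normalized counts, replicate 5) and in TA (1774, replicate 5), and for the Cox4i2 share of subunit 4 in TA (17.5%, the same library). In both populations that library also held the highest sum of mural markers, whose part in the result was not tested. The highest library was also flagged for Atp5g2 in EVP (200.5 normalized counts), for Atp5s in TA (609) and for Ndufa2 in D (3434). The lowest library was flagged for Ndufa4 in D (2433 normalized counts).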

How the results depend on the processing

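Ndufa8 and Ndufa4l2 in both comparisons with D, and Ndufs8, Ndufc2 and Cox5a in EVP against D, kept their direction and call in all 28 alternatives, Cox4i2 in TA against D in 27, Ndufa12 in 19 and Ndufb7 in 17. The count of 8 called genes in EVP against D was 5 after quantile normalization, 17 with array weights, 12 with DESeq2 and 5 to 10 with single libraries left out. The count of 0 in EVP against TA was 1 with a pseudocount of 8, 2 with a minimum mean of 20, 5 with libraries scaled to the same total, 6 after quantile normalization, 1 with size factors from genes of at least 500, 1 with edgeR, 12 with DESeq2 and 0 to 1 with single libraries left out, the 1 being without TA replicate 5. The count of 3 in TA against D was 7 with DESeq2 and 3 to 4 with single libraries left out. The cause of these differences was not tested.

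Without replicate 1 of every population, which leaves 4 libraries each and raises the smallest p, the share differences were 26.7 and 20.3 points for Ndufa4l2 and 1.61 and 6.96 points for Cox4i2 (EVP and TA against D), and none passed. With single libraries left out they ranged over 23.7 to 28.2 and 11.7 to 20.1 points for Ndufa4l2 and 0.941 to 1.77 and 2.7 to 6.96 points for Cox4i2. Cox4i2 in EVP against TA ranged over -5.48 to -1.23 points and passed without TA replicate 1, and Atp5g2 in TA against D ranged over 0.909 to 2.33 points and passed in 1 case. Atp5g1 in TA against D changed sign, with 0.26 points when counts were not divided by length, 0.73 without replicate 1 of every population and -0.775 to 0.573 with single libraries left out. Lengths of all exons, chosen after seeing the data, changed no share call.

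The labels do not say what a replicate number marks. The correlation of deviations was above 0.1 in 4 of 5 same-numbered pairs in EVP against TA, 4 in EVP against D and 3 in TA against D, so not in every pair as required here to treat the numbers as pairs. As a hint from the data that numbers were shared, 8, 8 and 7 of 10 libraries correlated best with their own number, and Gm10800 was high in replicate 1 of all 3 populations. With the replicate block 9 genes were called in EVP against D, 0 in EVP against TA and 4 in TA against D, and the paired share differences of 25.6 and 17.3 points (Ndufa4l2) and 1.47 and 5.57 points (Cox4i2) did not pass in an exact sign-flip permutation test, which cannot pass with 5 pairs.

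Among genes near 0 and not called, some log2 differences changed sign. Under the same total these were -0.074 (Atp5g1 EVP against D), -0.030 (Atp5s EVP against D), -0.021 (Atp5s EVP against TA), 0.018 (Cox5a TA against D), 0.0054 (Ndufa2 TA against D), -0.10 (Ndufaf2 EVP against TA). Under edgeR these were -0.017 (Atp5g1 EVP against D), -0.0032 (Ndufaf2 EVP against TA). Under size factors from genes of at least 500 these were 0.024 (Atp5g2 EVP against D), 0.0077 (Atp5s TA against D), 0.036 (Cox5a TA against D), 0.022 (Ndufa2 EVP against D), 0.023 (Ndufa2 TA against D), 0.090 (Ndufa4 EVP against D). Under quantile normalization these were -0.16 (Atp5s EVP against D), 0.045 (Cox5a TA against D), 0.053 (Ndufa2 TA against D), 0.043 (Ndufa4 EVP against D), -0.040 (Ndufaf2 TA against D). Under DESeq2 these were 0.041 (Atp5s TA against D). Under array weights these were 0.0029 (Ndufa2 EVP against D), 0.17 (Ndufa2 EVP against TA), 0.0089 (Ndufa4 EVP against D). Without replicate 1 of every population these were 0.024 (Ndufa2 EVP against D), 0.024 (Ndufa2 EVP against TA), 0.033 (Ndufa4 EVP against D), -0.028 (Ndufaf2 EVP against TA). With single libraries left out they ranged over -0.063 to 0.11 (Atp5g1 EVP against D), -0.23 to 0.022 (Atp5g2 EVP against D), -0.035 to 0.19 (Atp5s EVP against D), -0.051 to 0.44 (Atp5s EVP against TA), -0.36 to 0.13 (Atp5s TA against D), -0.21 to 0.032 (Ndufa2 EVP against D), -0.15 to 0.11 (Ndufa2 EVP against TA), -0.20 to 0.034 (Ndufa2 TA against D), -0.11 to 0.030 (Ndufa4 EVP against D), -0.048 to 0.28 (Ndufaf2 EVP against TA), -0.14 to 0.19 (Ndufaf2 TA against D). Depth bears most on EVP replicate 1, the shallowest library.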
